A study of Mus musculus with 4 samples.

Results

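Regions of the Isl1-Lhx3 binding map in which the deposited peak list gives several summits were examined. A region is a stretch of enriched sequence in the list, and a maximum is a position in it where the ChIP signal peaks. Regions were chosen by the number of maxima the authors' peak calls list for them, so that 2 or more listed maxima share the start and end of each of the 135 members. The members hold 288 of the 2454 nuclear maxima in the list, and the other 2166 of its 2301 regions hold 1 maximum each. All coordinates are those of the mouse genome build mm9.

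The maps come from mouse iMN-ESCs, an embryonic stem cell line (A172LoxP background) that carries a Flag-tagged fusion of Isl1 and Lhx3 under a promoter switched on by doxycycline (Dox). All embryoid bodies received 0.5 µM retinoic acid alone for 2 days and then retinoic acid for 4 more days, with Dox at 2 µg/mL (n = 2 libraries) or without it (n = 2 libraries). LIF at 1000 units/mL was added to every culture for 16 hours before harvest, and an anti-Flag antibody was used for each precipitation. The list gives a single ChIP score, background score and tag count per entry, with none per library, so no difference with and without Dox and no spread between libraries could be measured, and the depth of each library is unknown.

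Both Isl1 and Lhx3 belong to the LIM-homeodomain family of transcription factors and act together in a complex held by the adaptor Ldb1 when spinal motor neurons form. Homeodomains bind short AT-rich sites built on TAAT, and the palindrome TAATTA holds that site on both strands. Enhancers of developmental genes often carry several such sites within a short stretch.

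The sequences of 5 regions with TAATTA near both the strongest maximum and its partner are shown first, as examples in which the motif can be seen beside each maximum. They are a minority: of 55 members with maxima at least 200 bp apart, 7 have TAATTA within 100 bp of both and 24 of neither. Lmo4, with maxima closer together, is not among the 55. The partner is the maximum nearest in bases to the strongest maximum of its region. All are the plus strand of mm9, and capitals mark TAATTA. The stretch of Slc10a7 (chr8:81061738-81062037) has its strongest maximum at base 255 and its partner at base 45, that of Zbtb20 (chr16:43604041-43604320) at bases 40 and 240, and that of Lmo4 (chr3:143861965-143862164) at bases 165 and 36. For Smchd1 and Atp8a1, whose maxima lie farther apart, 100 bp around each maximum are given, from chr17:71829466-71829565 and chr17:71830147-71830246, and from chr5:68242572-68242671 and chr5:68241755-68241854.
Slc10a7, both maxima: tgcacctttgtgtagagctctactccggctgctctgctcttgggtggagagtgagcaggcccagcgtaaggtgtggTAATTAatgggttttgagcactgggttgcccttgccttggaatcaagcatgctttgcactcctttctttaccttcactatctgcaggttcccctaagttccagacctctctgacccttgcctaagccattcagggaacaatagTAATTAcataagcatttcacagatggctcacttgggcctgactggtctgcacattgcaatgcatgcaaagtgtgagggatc
Zbtb20, both maxima: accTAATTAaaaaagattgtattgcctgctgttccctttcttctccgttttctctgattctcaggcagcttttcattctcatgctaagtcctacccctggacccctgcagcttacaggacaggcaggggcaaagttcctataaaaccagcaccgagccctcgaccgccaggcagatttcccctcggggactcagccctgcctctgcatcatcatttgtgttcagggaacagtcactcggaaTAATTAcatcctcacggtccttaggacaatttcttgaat
Lmo4, both maxima: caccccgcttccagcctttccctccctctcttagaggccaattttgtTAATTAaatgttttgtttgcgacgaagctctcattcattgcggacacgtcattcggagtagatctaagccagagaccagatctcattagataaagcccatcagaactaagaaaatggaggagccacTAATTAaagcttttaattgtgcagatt
Smchd1, strongest maximum: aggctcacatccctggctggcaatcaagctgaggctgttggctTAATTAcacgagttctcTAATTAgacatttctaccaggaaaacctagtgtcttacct
Smchd1, partner maximum: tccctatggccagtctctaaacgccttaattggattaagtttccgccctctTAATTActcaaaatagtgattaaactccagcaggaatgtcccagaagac
Atp8a1, strongest maximum: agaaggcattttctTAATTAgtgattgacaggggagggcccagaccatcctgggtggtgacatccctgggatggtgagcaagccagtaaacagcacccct
Atp8a1, partner maximum: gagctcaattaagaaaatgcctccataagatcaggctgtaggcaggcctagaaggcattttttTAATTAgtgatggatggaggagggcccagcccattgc

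In Slc10a7 the TAATTA cores were centred 32.5 bp from the strongest maximum and 34.5 bp from the partner, and in Zbtb20 33.5 and 4.5 bp. For comparison, 3 higher-scoring stretches are shown with capitals marking TAAT on either strand. The first 2 are the intronic regions of Chat (chr14:33256817-33257096, strongest maximum at base 51 and partner at 229) and Dmxl2 (chr9:54246968-54247147, bases 45 and 136). Neither has TAATTA within 100 bases of a maximum. The third is the intergenic region near Prdm14 (chr1:13064771-13065070, bases 286 and 14), with TAATTA within 100 bases of its strongest maximum alone. That core is centred 67.5 bp from the maximum, toward the partner, and outside the 100 bp around it. In 100 bp windows of the Prdm14 region, TAAT had 1 match at the strongest maximum, 0 at the partner and 3 at the midpoint.
Chat, both maxima: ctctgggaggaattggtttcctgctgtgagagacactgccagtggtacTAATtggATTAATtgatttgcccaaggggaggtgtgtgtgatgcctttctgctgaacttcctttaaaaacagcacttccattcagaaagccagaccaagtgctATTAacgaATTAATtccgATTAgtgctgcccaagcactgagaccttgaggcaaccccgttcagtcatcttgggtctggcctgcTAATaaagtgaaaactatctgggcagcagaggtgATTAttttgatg
Dmxl2, both maxima: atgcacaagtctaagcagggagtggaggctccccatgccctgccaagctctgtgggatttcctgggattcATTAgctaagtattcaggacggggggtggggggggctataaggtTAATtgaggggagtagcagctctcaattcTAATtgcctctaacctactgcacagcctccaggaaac
Prdm14, both maxima: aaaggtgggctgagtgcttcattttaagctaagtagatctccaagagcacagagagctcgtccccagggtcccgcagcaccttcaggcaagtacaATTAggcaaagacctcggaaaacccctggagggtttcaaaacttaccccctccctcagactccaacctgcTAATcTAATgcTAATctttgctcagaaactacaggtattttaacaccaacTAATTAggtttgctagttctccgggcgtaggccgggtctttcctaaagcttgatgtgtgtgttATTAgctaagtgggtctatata

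Most members held 2 maxima (121 regions), 11 held 3, 2 held 4 and 1 held 5. Neighbouring maxima of a region lay a median of 173 bp apart (quartiles 128 and 238, n = 153 neighbouring pairs). Of these pairs, 14 were less than 100 bp apart, 38 were 100 to under 150 bp apart, 42 were 150 to under 200 bp apart, and 8 were at least 500 bp apart. The closest pair, 75 bp apart, lay in an intron of Zdhhc20 with scores of 31.05 and 30.24. At the other end, 2 maxima of the Sfi1 region were 3495 bp apart. The listed 500 bp windows of the strongest maximum and its partner overlapped in 128 of 135 members.

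**Figure D1:**
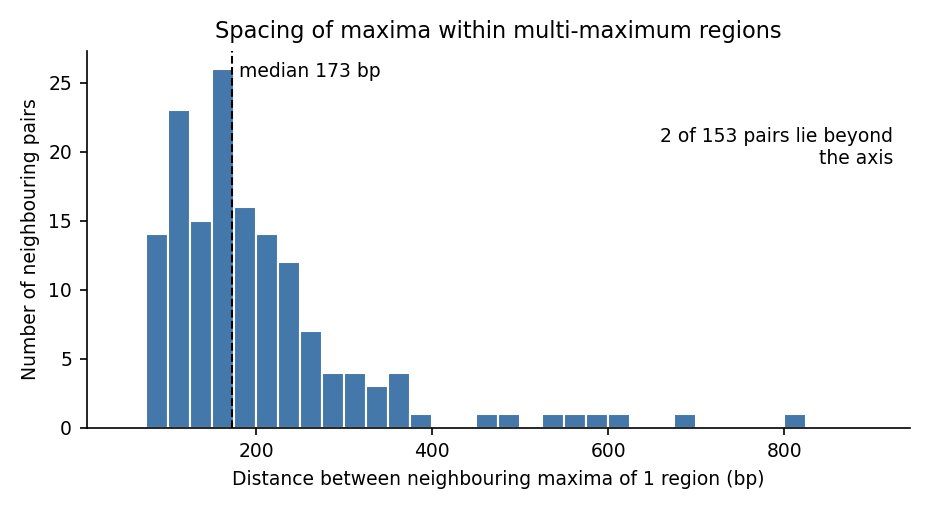
Histogram of the distance in bp between neighbouring maxima of the same region (153 pairs in 135 regions, bins of 25 bp), with the median of 173 bp as a dashed line. Most pairs sit below 300 bp, and 2 lie beyond the axis.

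The rule rests on the list's own limits. The lowest ChIP score listed is 29.98, and in 47 members (34.8%, 26.8 to 43.5) the weakest maximum scored less than 1.1 times that value, and in 41 of them no more than 1 maximum scored above it, so that a limit at that value would have left them out of the class. Just outside the rule, the nearest maxima listed as separate regions were 373 bp apart on chromosome 14 (59281551 to 59282280 and 59282309 to 59282722), with a gap of 28 bp between the regions. In all, 15 of 2281 pairs of neighbouring regions had maxima less than 1000 bp apart and were still listed separately. Members could have such a neighbour too: a separate region had its maximum 676 bp from the strongest maximum of the Spry2 region (chromosome 14, 106259082 to 106259799) and 737 bp from that of the Smchd1 region.

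Members were wide and rich in tags, which the rule favours, so these values are given with no test. Their median width was 774 bp (quartiles 628.5 and 984), against 455 bp for regions with 1 maximum, and the median tag counts were 62 and 29. The share of regions with several maxima was higher among wider regions, from 8 of 802 regions under 400 bp (0.998%) to 33 of 87 of at least 1000 bp (37.9%). The strongest maximum had a median ChIP score of 53.26 in members and 40.68 in the others. In the ranking of all regions by strongest score, 105 of 135 members (77.8%, 69.8 to 84.5) were at or above the median and 65 (48.1%) were at or above the upper quartile. All intervals given here are exact 95% intervals that cover counting error only.

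Scores within a region ranged from equal to strongly unequal. A partner must itself reach the lowest listed score, so the rule bounds its share from below, and the shares are a description. The partner reached a median of 74.3% of the strongest score, and at least 80% of it in 59 of 135 members (43.7%, 35.2 to 52.5). In 21 members (15.6%) it stayed under 50%. Smarcad1, which encodes a chromatin remodeller, had 2 maxima of score 43.36 that were 297 bp apart upstream of the gene. Near Krt222 the scores were 41.75 and 41.49, and near Arhgap12 47.37 and 46.57. Across the 135 members, distance and score ratio had a Spearman's rho of -0.377 and Pearson's r of -0.184. These points share 1 list and its lower score limit, so the relation is a description.

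**Figure D2:**
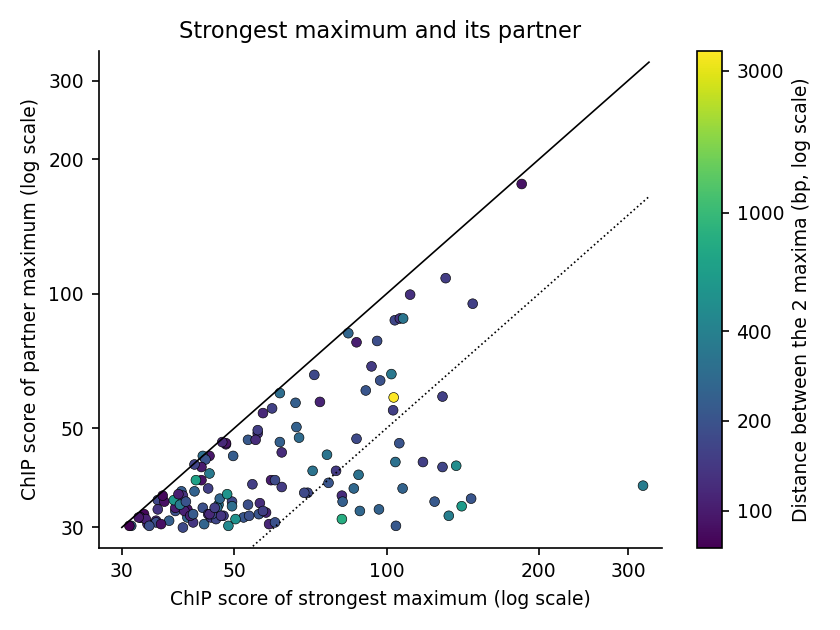
ChIP score of the strongest maximum (x, log scale) against that of its partner (y, log scale) for the 135 members, coloured by the distance between them. The solid line marks equal scores and the dotted line a partner at 50% of the strongest. The Dmxl2 pair (184.95 and 176.11) lies near the solid line, and the region inside Enox1 (321.18 and 37.2) far below the dotted one.

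The strongest members differed in how their signal was divided. The top region of the whole list (chromosome 14, 77648787 to 77651580) lies in an intron of Enox1, 1.57 kb downstream of a start of Gm10132, and holds 390 tags (352 to 431). Its main maximum of 321.18 stood beside minor ones of 37.2 and 31.05, so the partner reached 11.6% of it. Dmxl2, whose product regulates the vacuolar proton pump of synaptic vesicles, showed the opposite arrangement. There the intronic maxima of 184.95 and 176.11 were 91 bp apart (chromosome 9, 54246659 to 54247447, 166 tags). Hesx1, a homeobox gene of the early forebrain and pituitary, had maxima of 148.01 and 95.02 at 5.70 kb downstream of its start (chromosome 14, 27818896 to 27820141). Cdc73, a subunit of the PAF transcription elongation complex, was the nearest gene to maxima of 130.88 and 108.4, at 51.0 kb from its start.

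In the other 6 of the 10 members with the highest scores, the partner stayed under 50% of the strongest maximum. The region 0.594 kb upstream of Rasl11a had scores of 146.94 and 34.79, that near Gm815 had 140.78 and 33.46 at 604 bp apart, and that near Gm10655 had 132.75 and 31.85. A region inside the noncoding gene Gm6846, with Sgk1 as the nearest protein-coding gene, had scores of 137.3 and 41.22. Near Tcfeb, a regulator of lysosome genes, a maximum of 129.01 lay between others of 41.75 and 40.95, and near Myof one of 129.01 lay between 58.88 and 47.91. Of these 10 members, 2 had TAATTA within the 200 bp around their strongest maximum (Rasl11a and the Sgk1 neighbour), beside 34.5% of all regions. Among members at or above the median score of all regions, 39 of 105 had it (37.1%). The share was 36.9% in regions with 1 maximum at or above that score.

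The 14 regions with 3 or more maxima were spread over gene bodies and intergenic sequence. The one with 5 maxima was intergenic (chromosome 5, 56183037 to 56183832), 168.2 kb from Gm15975, with scores of 57.81, 47.64, 38.54, 35.33 and 32.39 and no TAATTA near any of them. A region with 4 maxima lay in an intron of Stac (66.38, 50.32, 34.53 and 30.24). Those with 3 lay in introns of Enox1, Agap1 (76.82, 41.49 and 37.74), Optn (103.85, 87.25 and 38.27), Hecw2 (57.01, 54.07 and 36.4), Fryl (56.21, 42.56 and 33.99), Wwox (39.61, 33.46 and 29.98) and Bcl2l1, or between genes near Tcfeb, Myof, Sall1 and Cd2ap (55.14, 47.11 and 33.99). Bcl2l1 encodes a survival factor of the Bcl-2 family, and its maxima of 40.42, 34.26 and 32.92 lay in an intron about 0.568 kb from the start. In the Optn region the strongest maximum had no TAATTA in its 200 bp, and the overlapping windows of the other maxima held the same 2 sites.

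**Figure D3:**
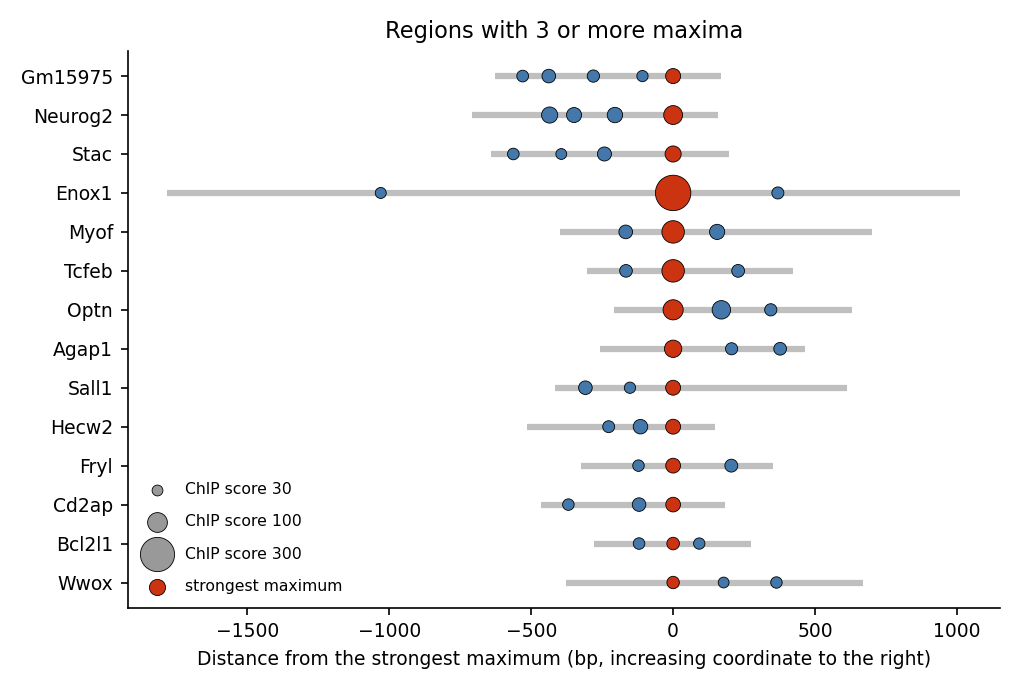
Maps of the 14 regions with 3 or more maxima, aligned at the strongest maximum (red). Grey bars show the extent of each region in bp, circles mark maxima with areas scaled to the ChIP score, and names give the host gene or the nearest start. The weaker maxima lie on 1 side of the strongest in 9 regions and on both sides in 5.

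The Neurog2 region stood apart in its position. Neurog2 encodes a proneural basic helix-loop-helix factor that drives motor neuron progenitors toward differentiation. Its region (chromosome 3, 127336630 to 127337497) held 158 tags and 4 maxima with scores of 91.0, 66.64, 60.76 and 57.54, all with a background score of 0. It was the only member with a strongest maximum in a coding exon (1 of 135, against 17 of 2166 regions with 1 maximum). It covers all 789 annotated coding bases of the gene (127336647 to 127337435), starts 17 bp before them and ends 62 bp after them, and 90.9% of its bases are coding. All 4 maxima lie in coding sequence, and the 200 bp around each hold no TAATTA. The list gives no library-level values from which the origin of these tags could be tested.

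A difference between members and other regions in TAATTA at the strongest maximum was not detectable with 135 members. In 200 bp windows it was found in 52 of 135 members (38.5%, 30.3 to 47.3), beside 34.5% of all 2301 regions. Regions with 1 maximum had it in 741 of 2166 cases (34.2%, 32.2 to 36.3), which gave an odds ratio of 1.20 (0.825 to 1.75, two-sided Fisher's exact test, adjusted p = 0.486 over 11 motifs). The partner had it in 41 of 135 members (30.4%, 22.8 to 38.9), with an odds ratio of 0.839 against the same regions (0.560 to 1.24, exact p = 0.400). Flanks 1 kb to each side of the strongest maxima had it in 20 of 270 windows (7.41%). With 500 bp windows, which mostly take in the partner as well, the share was 51.1% in members and 40.9% in the others (odds ratio 1.51, 1.05 to 2.18, exact p = 0.0241 before adjustment, 0.265 after).

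Taken over whole regions, TAATTA occurred 144 times in the 115795 bases of the members, or 1.24 per kb. Of these, 9 were in 1 intronic region of Apobec2 that is 322 bp wide. The density in regions with 1 maximum was 1.12 per kb, and in flanks of the members of equal length 0.389 per kb. Among members, which are wider, 38 of 135 (28.1%) held TAATTA at least 2 times, against 222 of 2166 other regions (10.2%). At least 1 maximum had TAATTA in its 200 bp in 71 members (52.6%, 43.8 to 61.2), and every maximum had it in 24 (17.8%, 11.7 to 25.3). The count of 71 spans several windows per member, so it is not comparable with shares for 1 window per region. Per maximum, 98 of 288 had it (34.03%), beside 34.2% of regions with 1 maximum. The count of 24 and the count per maximum include regions in which overlapping windows share a single site.

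Within regions, TAATTA was more frequent at the maxima than midway between them. For this comparison, the 55 members whose strongest maximum and partner were at least 200 bp apart were read in 100 bp windows at each maximum, at the midpoint, and at the same distance on the outer side of each maximum. TAATTA was in 18 of 55 windows at the strongest maximum (32.7%, 20.7 to 46.7) and in 11 of 55 at the partner (20%, 10.4 to 33.0), but in 1 of 55 at the midpoint (1.82%, 0.046 to 9.72). Of the regions that differed, 17 had it at the strongest maximum alone and 0 at the midpoint alone (exact McNemar test, adjusted p = 3.05e-05 over 2 comparisons), and for the partner the counts were 11 and 1 (exact McNemar test, adjusted p = 0.00635). The midpoint share was below that of 100 bp flanks (12 of 270, 4.44%, 2.32 to 7.63), with overlapping intervals. The single midpoint with TAATTA was in the region near Klf5. A fall with distance was not particular to members. In regions with 1 maximum there were 7.85 cores per 100 maxima at 0 to 20 bp and 0.508 at 100 to 120 bp.

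The outer side of the maxima was also poor in TAATTA. It had the motif in 2 of 55 windows beside the strongest maximum (3.64%, 0.443 to 12.5) and in 5 of 55 beside the partner (9.09%, 3.02 to 19.95). The strongest maximum exceeded its outer window (18 regions against 2, exact McNemar test, adjusted p = 8.05e-04), whereas the partner did not pass (9 against 3, exact test, adjusted p = 0.146). Midpoint and outer windows were not distinguished for either (exact test, adjusted p = 1 and 0.438). The outer windows were added after the data were seen and were placed by distance alone. In the Neurog2 and Stac regions, the outer window beside the partner took in a further listed maximum.

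The shorter site TAAT, which TAATTA contains, followed the same arrangement. It was in 46 of 55 windows at the strongest maximum (83.6%), 43 at the partner (78.2%) and 26 at the midpoint (47.3%), and the maxima exceeded the midpoint in each case (exact McNemar test, adjusted p = 3.60e-04 and 0.00232). The mean number of TAAT matches per window was 2.02 at the strongest maximum, 1.64 at the partner, 0.873 at the midpoint and 0.826 in flanks. Mean GC content of the same windows was 47.4%, 47.9% and 47.7% at the strongest maximum, partner and midpoint. AATATT, a control of the same base composition, was in 0 windows at the strongest maximum, 0 at the partner and 3 at the midpoint (exact McNemar test, adjusted p = 0.25). With 0 of 55, a share of up to 6.49% is allowed.

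**Figure D4:**
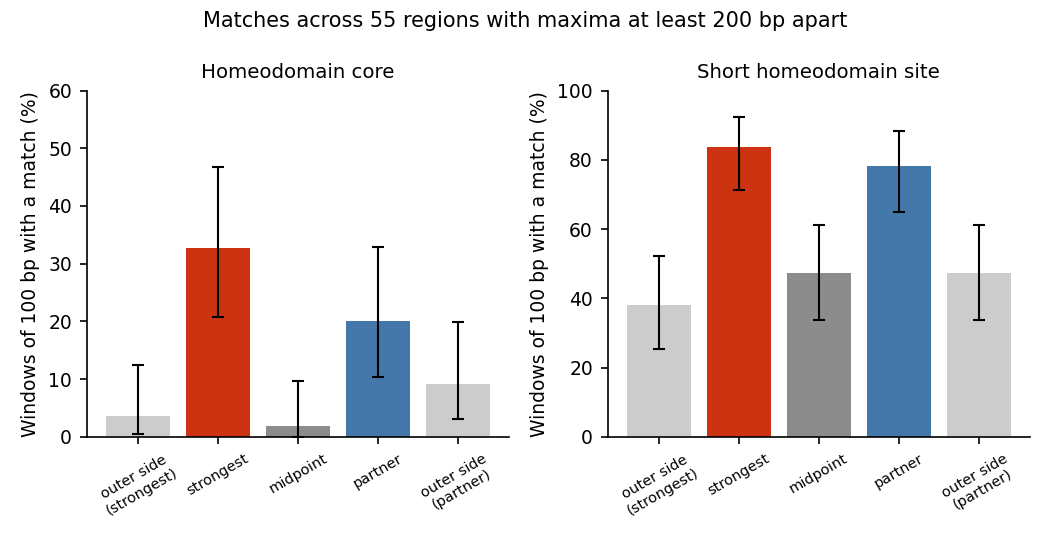
Share of 100 bp windows with TAATTA (left, homeodomain core) and with TAAT (right, short homeodomain site) in the 55 members with maxima at least 200 bp apart. Bars stand for the strongest maximum, its partner, the midpoint, and the outer side of each at the same distance, with exact 95% intervals. The core is in 18 windows at the strongest maximum and in 1 at the midpoint.

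Both maxima of a region carried TAATTA in 7 of these 55 members (200 bp windows), the strongest alone in 17, the partner alone in 7 and neither in 24. The presence of TAATTA at 1 maximum did not go detectably with its presence at the other (exact p = 0.756 by Fisher's test, odds ratio 1.40, interval 0.348 to 5.69). By nearest protein-coding start, the 7 regions were those of Atp8a1, Slco3a1, Slc10a7, Zbtb20, Smchd1, Sox5 and Klf5, and of these the Slc10a7, Zbtb20 and Sox5 regions lie in introns of the named gene. In the intergenic region 4.83 kb upstream of Smchd1, which encodes a chromatin protein of X inactivation, the nearest TAATTA lay 3.5 and 4.5 bp from maxima 681 bp apart, with scores of 42.02 and 38.27. In Zbtb20, a zinc-finger transcription factor gene, the scores were 40.15 and 34.26 at 200 bp apart.

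**Figure D5:**
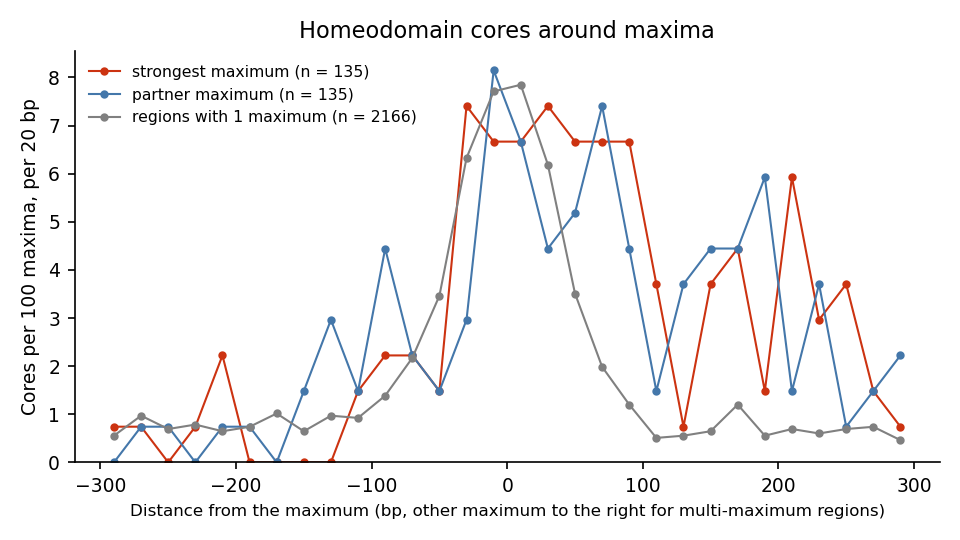
Number of TAATTA cores per 100 maxima in 20 bp bins by distance from the maximum, for the strongest maximum and the partner of members (n = 135 each, with the other maximum to the right) and for regions with 1 maximum (n = 2166). Within 60 bp the totals are 36.3, 28.9 and 35.0 per 100 maxima. From 180 to 300 bp on the side of the other maximum they are 16.3 and 15.6 for members, against 4.44 and 2.96 on the outer side, and 3.74 for regions with 1 maximum.

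The Atp8a1 region held a closely similar stretch of sequence at both maxima. Atp8a1 encodes a phospholipid flippase, and its region (chromosome 5, 68241318 to 68242841, in the overlapping gene Gm15477) lies 3.95 kb upstream. Local alignment of the 200 bp at the strongest maximum (score 81.63) with the 200 bp at the partner (31.31), 817 bp away, matched 114 of 126 aligned positions (90.5%) in the same orientation. TAATTA is inside that stretch in each copy, as the printed sequences show. Its alignment score was 90, whereas the other 54 pairs at least 200 bp apart scored from 7 to 11 (1 per match). The background score was 0 at both maxima. Whether tags could be assigned to 1 copy or the other was not tested.

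No motif, TAATTA included, passed the test between members and other regions. Over 11 motifs searched on both strands at the strongest maximum, 0 passed against regions with 1 maximum by Fisher's exact test with Benjamini-Hochberg adjustment, and 0 had an unadjusted p under 0.05. The SOX site ATTGTT was in 19.3% of members and 13.9% of the others (adjusted p = 0.273, exact test), the E-box CAGCTG in 8.89% and 14.1% (0.273), and the POU octamer ATGCAAAT in 5.19% and 4.29% (0.807). The STAT site TTCNNNGAA was in 8.15% of members (4.14 to 14.1), 4.80% of the others and 9.63% of the members' flanks. Its odds ratio was 1.76 (0.829 to 3.39, exact test, adjusted p = 0.273). The strict form TTCCNGGAA was in 2 members (1.48%), 0.739% of the others and 1.85% of flanks. The control AATATT was in 3.70% of members and 1.71% of the others (odds ratio 2.21, 0.667 to 5.78, exact test, adjusted p = 0.273). TAAT itself was in 94.1% of members and 94.6% of the others, and the CRE TGACGTCA in 1 member (0.741%) and 0.508%. CAATTA, a variant of the core chosen after its values were seen, was near the strongest maximum in 30.4% of members, near the partner in 22.2%, in 30.8% of other regions and in 10.4% of flanks. Neither TAATTA nor CAATTA was near the strongest maximum or the partner in 38 members (28.1%, 20.8 to 36.5). That count spans 2 windows per member, and no such count is given for regions with 1 maximum.

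Among motor neuron transcription factors, Neurog2 and Lmo4 had a member region by nearest start. Lmo4, a LIM-only protein that binds Ldb1, had intronic maxima of 55.67 and 48.71 at 129 bp apart (chromosome 3, 143861854 to 143862345), each with TAATTA in its 200 bp (windows that overlap at this distance). With protein-coding genes alone, a region at 127.1 kb from Nkx6-1, a homeobox gene of ventral progenitors, was added (46.84 and 34.79). So was an intronic region of Chat, the gene of choline acetyltransferase (chromosome 14, 33256447 to 33257203), with maxima of 87.25 and 47.37 at 178 bp apart and background scores of 0 and 1.53. It was the only member among 12 matched cholinergic genes, which had 8 of all regions by this assignment. By nearest start among all genes, the motor neuron list had 3 member regions, including a region not named here, of 6 regions in all. With protein-coding genes alone it had 4 member regions of 12.

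In the pluripotency list, Prdm14 had maxima of 86.18 and 36.67 at 272 bp apart (chromosome 1, 13064067 to 13065558, 52.2 kb from its start). Klf5, a Krüppel-like factor of stem cells, was the nearest protein-coding gene to maxima of 41.75 and 36.13 in a wide region (chromosome 14, 99738337 to 99740227). Sall1, a zinc-finger gene, had 2 member regions, at 52.1 kb (52.19 and 31.58) and 40.5 kb (57.01, 47.37 and 32.65) from its start, of 4 regions in all. Spry2, an inhibitor of receptor tyrosine kinase signalling, had maxima of 44.7 and 39.61. Rbpj, the DNA-binding partner of Notch, had maxima of 39.34 and 36.13 at 49.6 kb upstream, and Slit3, an axon guidance cue, had an intronic region of 33.46 and 31.31. With protein-coding genes alone, the pluripotency, receptor tyrosine kinase, Notch and axon guidance lists had 2, 1, 1 and 1 members. These lists had 25, 15, 4 and 20 of all 2301 regions. By nearest start among all genes, the spinal interneuron, JAK-STAT, skeletal muscle, and endoderm and liver lists had 0 member regions. They had 4, 7, 0 and 1 of all 2301 regions. By the same assignment the cholinergic and axon guidance lists also had 0 member regions, and 6 and 16 of all regions.

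Altogether 8 of 135 members (5.93%, 2.59 to 11.3) had a list gene as their nearest start, beside 3.0% of all regions. With protein-coding genes alone there were 12 (8.89%, 4.68 to 15.0), beside 4.61%. Protein-coding genes with 2 member regions as nearest start were Jmjd1c, Mcc, Sall1, Sgk1 and Wwox. The intronic region of Sgk1, a serum-induced kinase gene, had maxima of 43.09 and 40.95 at 99 bp apart, with TAATTA in their overlapping 200 bp windows, beside the stronger one inside Gm6846. The lists were chosen with earlier results of these data known, and the counts are a description.

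Positions relative to genes did not differ detectably between members and other regions. Introns held 71 of them (52.6%, 43.8 to 61.2) against 44.4% of regions with 1 maximum (odds ratio 1.39, 0.965 to 2.00), and intergenic sequence 60 (44.4%) against 51.7% (odds ratio 0.749, 0.518 to 1.08). The adjusted p by Fisher's exact test was 0.221 and 0.221. A start lay within 5 kb of 38 members (28.1%, 20.8 to 36.5), beside 26.8% of all regions and 26.7% of regions with 1 maximum. Against the latter the odds ratio was 1.07 (0.709 to 1.60, exact test, adjusted p = 0.817). Exons held 4 members (2.96%) against 3.92% (exact test, adjusted p = 0.817). The partner was in the same annotation class as the strongest maximum in 131 of 135 members. By chromosome, 15 members were on chromosome 14 (11.1%, against 7.39% of all regions). Chromosome 16 had 1 member (0.741%, against 3.74% of all regions). Chromosome X had 0, and 34 of all regions (1.48%).

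Member regions had close neighbours more often in the list. Another region had a maximum within 10 kb of the strongest maximum in 29 of 135 members (21.5%, 14.9 to 29.4), beside 11.3% of all regions, and in 232 of 2166 regions with 1 maximum (10.7%, 9.44 to 12.1). The odds ratio was 2.28 (1.42 to 3.55), and 2.70 among regions with a strongest score at or above the median. These neighbours were called from the same libraries as the members, so no test is given.

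Background scores were low at most members. At the strongest maximum they were 0 in 43 of 135 members (31.9%, 24.1 to 40.4) and in 30.6% of regions with 1 maximum, and the median share of the ChIP score was 1.03% and 0.730%. The upper quartile of that share was 4.17% in members and 4.63% in regions with 1 maximum. At 17 members (12.6%) some maximum had a background score of at least 10% of its ChIP score. Members have several maxima that could reach this, and the count was not made for regions with 1 maximum. Among members the highest shares were at Sfi1 (32.1%), 9330188P03Rik (24.3%), Wwox (19.2%), Tcfeb (18.6%) and the Klf5 neighbour (16.8%). The Sfi1 region (chromosome 11, 3053566 to 3058286, intronic) was also the widest at 4721 bp and had most tags of all members (491, 449 to 536). Its maxima had ChIP scores of 103.31 and 58.62 and background scores of 33.15 and 18.27. The part of background in calling it was not tested.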

How the data were processed

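The deposited list gives the authors' ChIP score and background score per maximum and a count of tags per region. Reads were aligned with BWA 0.5.8a to mm9, per the submitters' processing notes. Not given in the sources used here were the peak caller, its threshold, the scale of the scores, the source of the background and any pooling of libraries. The depth of each library is unknown, and nothing in the labels says that the libraries of a group came from separate cultures. No value was compared between libraries.

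Of 2455 listed maxima, the mitochondrial one was left out. Entries with the same chromosome, start and end were joined into 2301 regions, and those with at least 2 maxima are the members. The members and gene lists were chosen with earlier results of these data known. Windows of 200 bp (100 bp for pairs at least 200 bp apart) were read from the mm9 genome and searched on both strands. Annotation came from the gene models supplied for mm9, with 37310 genes, and a region was assigned to the nearest start. Of 198 list genes, 195 were matched.

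Tests were two-sided Fisher's exact tests between regions and exact McNemar tests within regions, with Benjamini-Hochberg adjustment over 11 motifs, 4 position classes or 2 maxima. The p-values compare regions of 1 list, not libraries. The neighbour comparison had been planned as a Fisher's test and is given as a description, since neighbours come from the same calls. Flanks were centred 1000 bp to each side. Pairs were aligned locally (match 1, mismatch penalty 2, gap opening 4, extension 1).

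Regions named are the 10 with the highest score, those with 3 or more maxima, the 5 with the widest span, the 3 nearest in score, the 5 with the highest background share and those at list genes, of which 1 is not reported here. Zdhhc20, Slc10a7, Zbtb20, Slco3a1, Apobec2, the Sox5 region and the intronic Sgk1 region were named after their values were seen. The tests were checked on simulated data. Python 3.11.15, scipy 1.17.1, numpy 2.4.6, pandas 2.3.3, pysam 0.24.0 and Biopython 1.88 were used. Other windows, score and GC strata, distances and gene sets were tried as alternatives.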

Additional observations from a re-analysis of the deposited data

How the results depend on the processing

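The number of members depended on the score limit: 51 regions kept several maxima when the upper 50% of maxima by score alone were used, and 10 had maxima at least 500 bp apart, against 135. Joining maxima with overlapping 500 bp windows gave 132. The odds ratio for TAATTA at the strongest maximum was 0.916 with 100 bp windows (exact p = 0.764) and 1.51 with 500 bp windows (exact p = 0.0241), against 1.20; at the partner it was 1.27 with 500 bp windows (exact p = 0.207), against 0.839. The cause was not tested. Only 9 regions had maxima at least 400 bp apart, and there the excess of TAATTA over the midpoint was 44.4 percentage points at the strongest maximum and 22.2 at the partner (exact McNemar test, adjusted p = 0.25 and 0.5): 4 and 2 regions had it at the maximum alone and 0 at the midpoint alone. Without regions of high background, 49 pairs gave 16 against 0 and 10 against 0, and both passed (exact test, adjusted p = 6.10e-05 and 0.00195). For a start within 5 kb the odds ratio was 0.951 among regions at or above the median score and 0.969 with protein-coding genes alone, against 1.07. With 500 bp windows it was 1.75 for TAAT and 0.665 for the STAT control of wrong spacing, against 0.915 and 1.40, and none of these passed. Of 43 recomputed values, 32 kept direction and side of the threshold. The outer windows, TAAT and AATATT at midpoints, the background limit, distant partners and the neighbour count at high scores were chosen after seeing the data. No paired analysis was possible because the list has no column per library. For the same reason no library could be left out.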
